A study of Homo sapiens with 6 samples.

Results

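The ABC transporter genes were studied in HuCCT1 cells, a line established from a human intrahepatic cholangiocarcinoma, with and without forced expression of THY1, the gene of the surface glycoprotein CD90. The members were all rows of the expression table whose gene symbol is ABC, a family letter from A to G and a number, and 46 of 20811 genes had such a symbol. The rule uses the symbol alone. HuCCT1/CD90+ cells had been transduced with the THY1-CMV-GFP lentivirus, and HuCCT1/CD90- cells with the Lenti-CMV-GFP-2A-Puro-Blank lentivirus, both at a multiplicity of infection of 40. Each line gave 3 libraries, and both lines were grown in RPMI medium with sodium pyruvate, antibiotic-antimycotic, Hepes and fetal bovine serum. The comparison asks which ABC genes differ between cells that carry the THY1 vector and cells that carry a blank vector. Both are transduced lines of a single cell line, each carries a CMV promoter and GFP, and no untransduced cells were compared here.

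ABC proteins bind and hydrolyse ATP through a conserved cassette, and most of them use that energy to move a substrate across a membrane. Members of the B, C and G families export drugs and organic anions, and several were first described in tumour cells that resisted chemotherapy. The A family and part of the G family move cholesterol and phospholipids, the D family serves peroxisomes and lysosomes, and the E and F families have no membrane domain and act on ribosomes. In the biliary tree, ABC proteins of the hepatocyte canaliculus deliver bile salts, phospholipid and sterols into bile, while cholangiocytes return organic anions to the blood.

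The promoters of 4 members are shown because these genes carry the largest fall of the family on the log2(RPM + 1) scale used for the test (ABCA1), the fall of lipid transporters on chromosome 17 (ABCA6), the largest rise on that scale (ABCC5) and a gene of the same stretch of chromosome 3 as ABCC5 (ABCF3). Each run is the 250 bases before the start of the gene, read 5′ to 3′ on the strand of the gene, as RefSeq gives it for the build GRCh38.p14. The windows are chr9:104928156-104928405 on the minus strand for ABCA1, chr17:69141896-69142145 on the minus strand for ABCA6, chr3:184017885-184018134 on the minus strand for ABCC5 and chr3:184185949-184186198 on the plus strand for ABCF3. Capitals mark the GC box, the letters GGGCGG on the strand shown or its reverse complement CCGCCC.
ABCA1: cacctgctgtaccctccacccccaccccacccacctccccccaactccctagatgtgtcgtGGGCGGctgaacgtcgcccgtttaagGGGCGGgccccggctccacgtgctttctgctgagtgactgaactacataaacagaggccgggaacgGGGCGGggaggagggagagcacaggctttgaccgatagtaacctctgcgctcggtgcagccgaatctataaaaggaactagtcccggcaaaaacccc
ABCA6: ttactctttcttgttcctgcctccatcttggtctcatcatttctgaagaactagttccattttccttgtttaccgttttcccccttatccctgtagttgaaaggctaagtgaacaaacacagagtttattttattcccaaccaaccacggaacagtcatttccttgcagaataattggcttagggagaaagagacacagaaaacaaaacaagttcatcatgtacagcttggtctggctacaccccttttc
ABCC5: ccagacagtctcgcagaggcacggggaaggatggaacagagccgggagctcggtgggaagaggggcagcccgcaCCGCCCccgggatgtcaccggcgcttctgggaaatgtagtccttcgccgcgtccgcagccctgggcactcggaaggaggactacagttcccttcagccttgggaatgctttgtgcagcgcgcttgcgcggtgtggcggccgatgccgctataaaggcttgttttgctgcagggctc
ABCF3: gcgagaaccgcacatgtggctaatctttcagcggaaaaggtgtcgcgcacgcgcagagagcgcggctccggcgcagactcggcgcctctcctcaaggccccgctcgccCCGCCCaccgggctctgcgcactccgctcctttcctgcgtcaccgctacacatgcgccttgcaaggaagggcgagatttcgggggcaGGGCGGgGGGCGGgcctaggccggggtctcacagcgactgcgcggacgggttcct

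The ABCA1 and ABCF3 windows held 3 GC boxes each, the ABCC5 window held 1 and the ABCA6 window held 0. A promoter window was listed for 35 of the 46 members, and some members had several, so that 53 windows were read. A GC box was found in 25 of these 53 windows (47.2%) and in 42.6% of all 35116 promoter windows of the same length. The letters TATAAA, searched on both strands, were present in the ABCA1 and ABCC5 windows, in 11.3% of the member windows and in 10.7% of all windows. The ABCA1 window also held the letters of a DR4 element, a direct repeat of nuclear receptor sites with a spacer of 4 bases, which is the kind of element that liver X receptors bind. The part of it that the pattern given below matched, without the first base of its first site, lies at chr9:104928210-104928224. This part has 54 bases between it and the start of the gene, and reads as follows on the strand opposite to the gene.
ABCA1 DR4 element: ggttactatcggtca

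The pattern searched on both strands was GGTNA, then 5 bases of any kind, then GGTCA, where N is any base, and it was written after the ABCA1 window had been read. It was found in 1 of the 53 member windows and in 76 of all 35116 windows (0.216%). The letters AGGTCA, those of a single nuclear receptor site, were found in 2 of the 53 member windows (3.77%), of ABCF1 and ABCG2. They were present in 12.1% of all windows and absent from the ABCA1 window. These matches describe letters in a window and do not show binding.

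The deposited values were RPM, reads scaled to the same total in each library, with 1 amplicon per gene. The 6 libraries held between 8587634 and 10551516 reads on genes, and 3 reads, used as the floor, corresponded to 0.284 to 0.349 RPM. THY1 was read 0, 1 and 0 times in HuCCT1/CD90- cells, and reached 57.4 ± 14.4 RPM (SD, n = 3) in HuCCT1/CD90+ cells. The biliary epithelium markers KRT7, KRT19, SOX9 and EPCAM summed to 6451 to 7328 RPM in the HuCCT1/CD90- and 7906 to 8791 RPM in the HuCCT1/CD90+ libraries, and KRT19 and EPCAM were higher by the test used below. The hepatocyte markers ALB, TTR and CYP3A4 had at most 3 reads in every library, while the remaining marker, SERPINA1, was lower in HuCCT1/CD90+ cells. Of 5 fibroblast markers 4 were lower, with sums of 24.5 to 31.0 RPM against 14.7 to 15.1 RPM, and COL1A2 and COL3A1 had no read in HuCCT1/CD90+ libraries. In a fit with the replicate number as block, PDGFRB, EPCAM, CDH5 and CD68 were still called, while the adjusted p was 0.14 for KRT19, 0.071 for SERPINA1, 0.090 for COL1A2, 0.10 for COL3A1 and 0.086 for DCN. Endothelial markers summed to 14.5 to 23.2 RPM against 0.643 to 1.51 RPM, where CDH5 was lower and VWF had no read in HuCCT1/CD90- libraries. The immune markers PTPRC and CD3E stayed at the floor in both lines, and CD68 was higher. The part of these markers in the results below was not tested. In bulk RNA, fewer cells of a type and less RNA per cell cannot be told apart.

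Of the 46 ABC genes, 23 were above the floor in both lines, 5 were at the floor only in HuCCT1/CD90+ cells (ABCA6, ABCA8, ABCA10, ABCB9 and ABCG1), and 4 only in HuCCT1/CD90- cells (ABCA12, ABCB4, ABCB11 and ABCC4). The remaining 14 had at most 3 reads in every library. These were ABCA4, ABCA9, ABCB1, ABCB5, ABCC6, ABCC8, ABCC9, ABCC11, ABCC12, ABCC13, ABCD2, ABCG4, ABCG5 and ABCG8. ABCC13, which GENCODE 29 annotates as a pseudogene, belongs to none of the groups described below and had no read in any library.

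**Figure D1:**
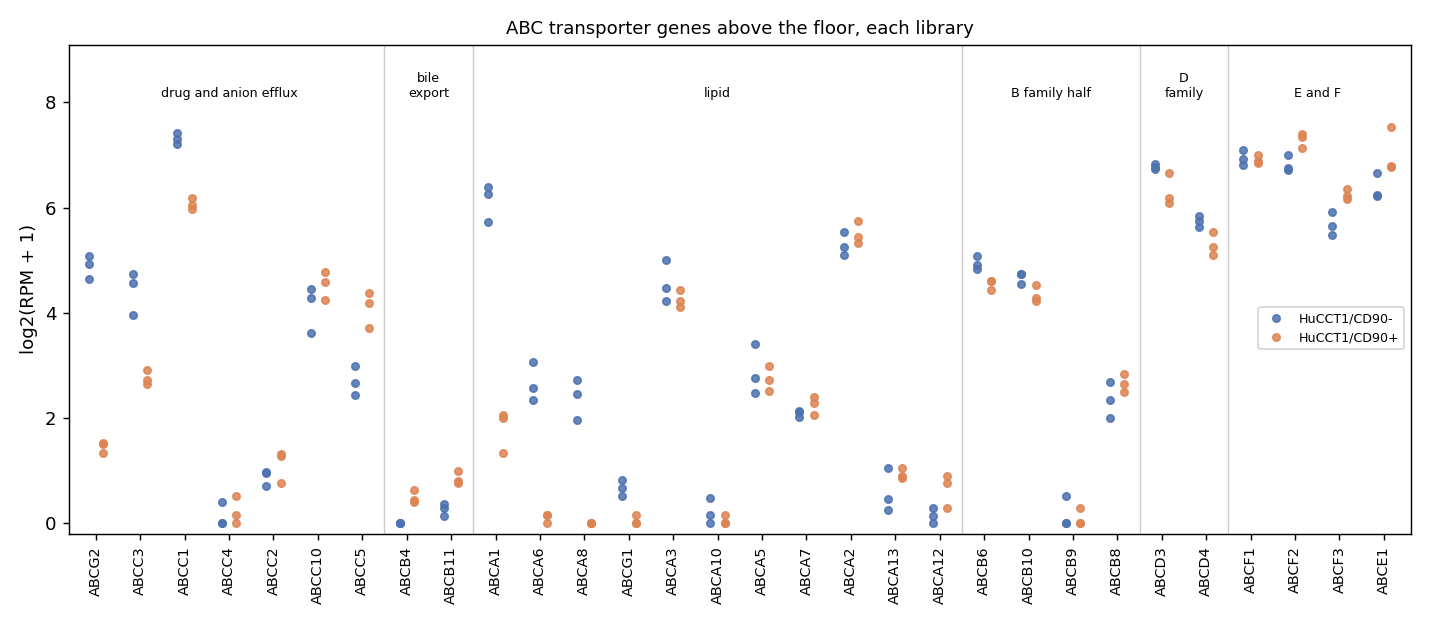
Level of the reported ABC transporter genes above the floor in at least 1 line, as log2(RPM + 1), with 1 point per library for the 3 HuCCT1/CD90- and the 3 HuCCT1/CD90+ libraries. The points of ABCA1 and ABCG2 stand far apart between the lines, and those of ABCF1 lie over each other.

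The lines were compared with limma over all 20811 genes, after conversion to log2(RPM + 1), and a Benjamini-Hochberg adjusted p of 0.05 or less was a call. By this rule 3 members (6.52%) were higher in HuCCT1/CD90+ cells, where 9.41% of all genes were, and 10 members (21.7%) were lower, where 9.52% of all genes were. The study's rule for DEGs was a p of at most 0.05 and a fold change of 1.5. Here the p was taken as unadjusted and the fold from the log2(RPM + 1) scale, neither of which the paper states. With that rule 2 members were higher (4.35%, against 10.1% of all genes) and 8 were lower (17.4%, against 9.98% of all genes). The 3 libraries of each line did not overlap for 6 members that were higher (13.0%, against 17.3% of all genes) and 14 that were lower (30.4%, against 17.7% of all genes). The 46 members had a median log2 fold change of -0.037, against 0 for all genes. Fold changes on the log2(RPM + 1) scale, given below with their standard error (SE), understate the change of genes with few reads. The p-values measure the spread between these libraries, for which no source states separate cultures, so the spread may be technical.

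**Figure D2:**
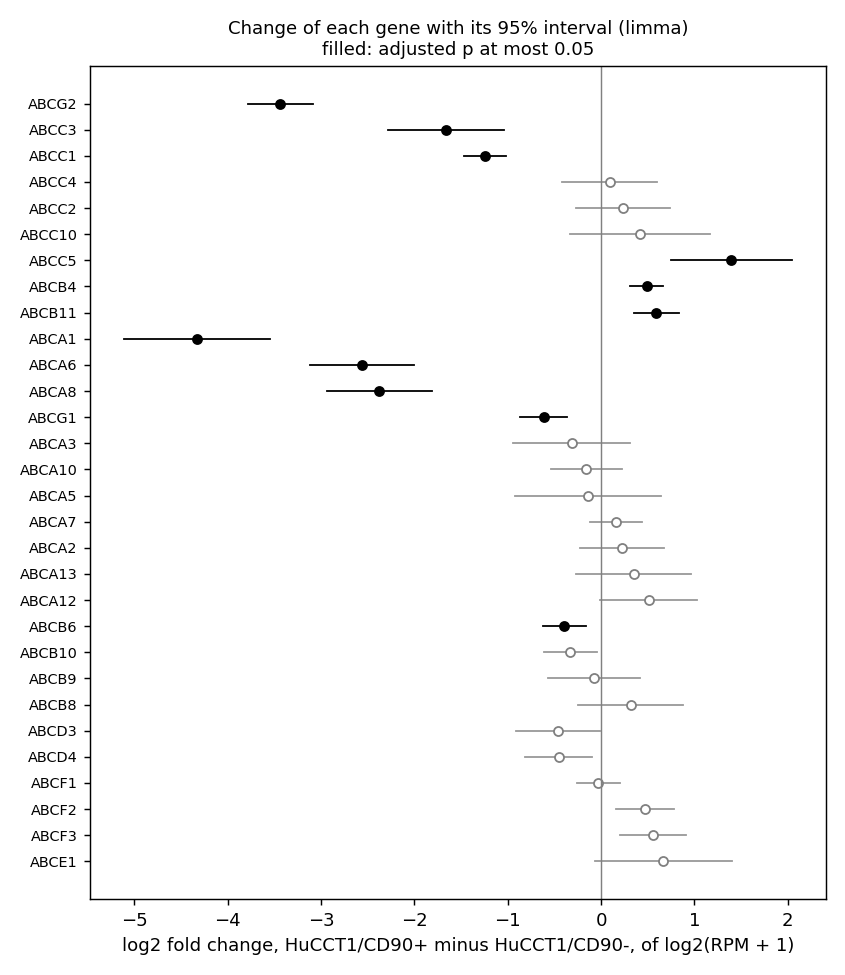
Log2 fold change of the reported ABC transporter genes above the floor in at least 1 line, HuCCT1/CD90+ minus HuCCT1/CD90- on the log2(RPM + 1) scale, with its 95% confidence interval, ordered by group. Filled points were called, and the changes run from -4.33 for ABCA1 to 1.40 for ABCC5.

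The group of multidrug and organic anion exporters had 12 members, of which 3 fell (ABCG2, ABCC1 and ABCC3), 1 rose (ABCC5) and 5 were at the floor in both lines. Over all genes 9.52% were called lower and 9.41% higher. ABCG2, the breast cancer resistance protein, exports topoisomerase inhibitors, porphyrins and urate. Its RPM was 29.5, 24.1 and 32.7 in the HuCCT1/CD90- libraries and 1.82, 1.86 and 1.52 in the HuCCT1/CD90+ libraries. Every HuCCT1/CD90+ library was thus far below every HuCCT1/CD90- library. The mean fell from 28.7 ± 4.35 to 1.73 ± 0.188 RPM (SD, n = 3), 16.6-fold lower, with a log2 fold change of -3.44 (SE 0.13, limma adjusted p = 0.00061). It was called in all 17 alternatives of the test that were tried.

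ABCC1, known as MRP1, exports glutathione conjugates and drugs such as anthracyclines and vinca alkaloids. Its RPM was 157, 171 and 146 in HuCCT1/CD90- libraries and 62.2, 71.7 and 64.9 in HuCCT1/CD90+ libraries, with no overlap. The mean fell from 158 ± 12.4 to 66.3 ± 4.92 RPM, 2.39-fold lower (log2 fold change -1.24, SE 0.084, limma adjusted p = 0.0021). ABCC1 too was called in all 17 alternatives. ABCC3, or MRP3, carries organic anions and bile salt conjugates across the basolateral membrane of cholangiocytes and hepatocytes. Its RPM was 14.6, 25.6 and 22.8 against 5.25, 6.52 and 5.64. The lines did not overlap, although the HuCCT1/CD90- libraries spread widely, and the mean was 3.62-fold lower in HuCCT1/CD90+ cells (log2 fold change -1.66, SE 0.23, limma adjusted p = 0.014). The adjusted p of ABCC3 was 0.0064 to 0.063 when a library was left out, and it passed 0.05 without HuCCT1/CD90- replicate 3 or HuCCT1/CD90+ replicate 1 or 3.

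ABCC5, or MRP5, exports cyclic nucleotides and nucleotide analogues. It moved in the opposite direction, with 5.31, 4.39 and 6.99 RPM in HuCCT1/CD90- and 17.2, 12.1 and 19.7 RPM in HuCCT1/CD90+ libraries. The lowest HuCCT1/CD90+ library was above the highest HuCCT1/CD90- library. The mean rose from 5.56 ± 1.32 to 16.3 ± 3.88 RPM, 2.94-fold higher (log2 fold change 1.40, SE 0.24, limma adjusted p = 0.025). When a library was left out the adjusted p was 0.033 to 0.088, and it passed 0.05 without HuCCT1/CD90- replicate 1 or 2 or HuCCT1/CD90+ replicate 1 or 3.

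The other exporters of the group were not called. ABCC2 (MRP2), which exports bilirubin glucuronides at the canaliculus, had 0.948, 0.642 and 0.970 RPM against 1.501, 0.699 and 1.41 RPM, with overlapping lines and a log2 fold change of 0.23 (95% confidence interval -0.27 to 0.73, limma adjusted p = 0.54). ABCC4 (MRP4), an exporter of cyclic nucleotides and bile salts, had 0, 3 and 0 reads against 4, 1 and 0 reads, too few to show a difference. ABCC10 (MRP7) had a mean of 16.9 RPM against 22.4 RPM, with a log2 fold change of 0.42 (interval -0.34 to 1.17, limma adjusted p = 0.44). ABCB1, the P-glycoprotein and the best known multidrug exporter, had 1 read in total over the 6 libraries. With ABCB5, ABCC6, ABCC11 and ABCC12 it was among the 5 exporters at the floor in both lines, where no difference was detectable at this depth.

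**Figure D3:**
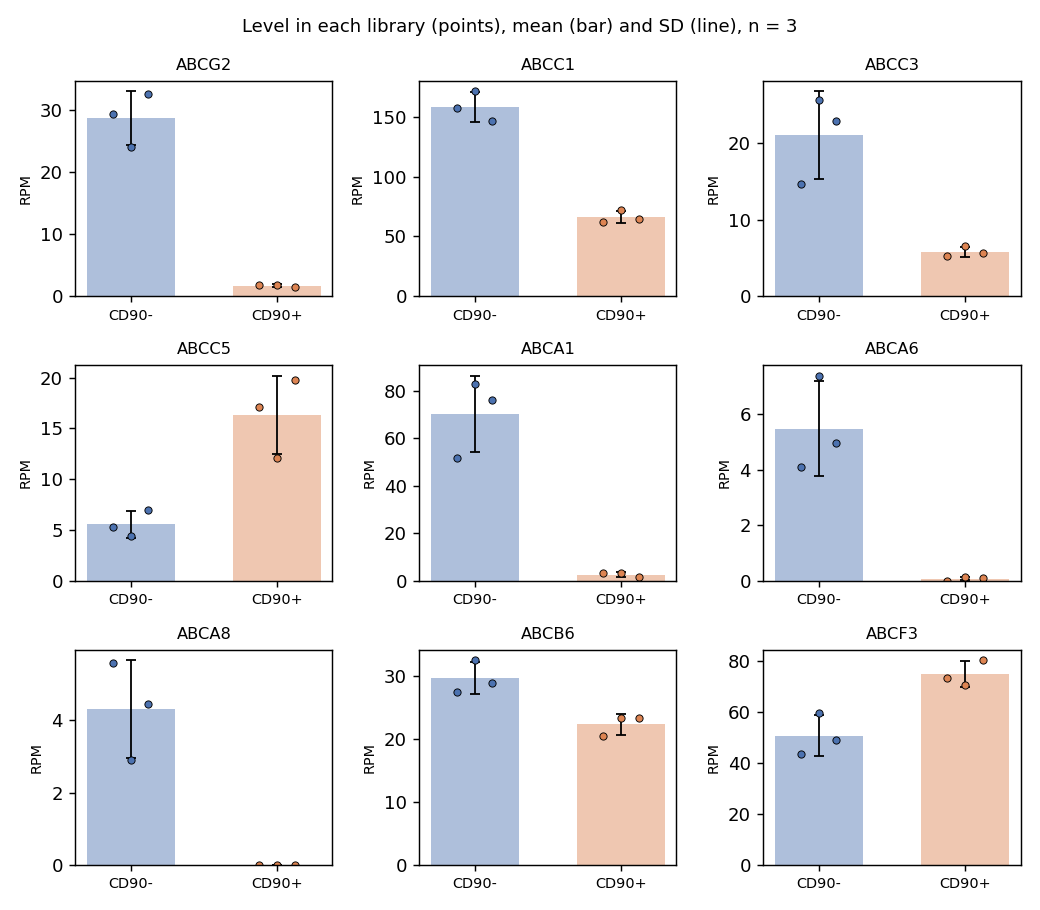
RPM of the ABC transporter genes described library by library, with points for the 3 libraries of each line, bars for the mean starting at 0 and error bars for the SD. ABCG2, ABCC1, ABCC3 and ABCA1 stand lower and ABCC5 stands higher in every HuCCT1/CD90+ library.

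The cholesterol and phospholipid transporters had 14 members, of which 5 were called lower, among them 1 at the floor in both lines, and 0 were called higher, where 9.52% of all genes were lower and 9.41% higher. With the replicate block 4 were lower and 1 was higher, where 6.40% of all genes were lower and 6.72% higher. ABCA1 loads cellular cholesterol and phospholipid onto apolipoprotein A-I, and its promoter with the DR4 letters is shown above. In HuCCT1/CD90- libraries it had 51.8, 82.6 and 76.1 RPM, and in HuCCT1/CD90+ libraries 3.00, 3.14 and 1.52 RPM. Every HuCCT1/CD90+ library was far below every HuCCT1/CD90- library. The mean fell from 70.2 ± 16.2 to 2.56 ± 0.900 RPM (SD, n = 3), 27.5-fold lower, with a log2 fold change of -4.33 (SE 0.29, limma adjusted p = 0.0021). ABCA1 was called in all 17 alternatives.

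ABCA6 and ABCA8 belong to a cluster of related A family genes on chromosome 17 whose proteins are thought to handle lipids. ABCA6 had 4.08, 7.38 and 4.95 RPM in HuCCT1/CD90- libraries and 0, 1 and 1 reads in HuCCT1/CD90+ libraries. The ratio of the pooled reads was 73.2-fold lower, with an exact 95% counting interval of 19.9 to 610 that covers counting error only (limma adjusted p = 0.0034). ABCA8 had 5.59, 2.89 and 4.46 RPM against 0 reads in all 3 HuCCT1/CD90+ libraries, at least 12.3-fold lower when set against the floor of 3 reads per library (limma adjusted p = 0.0044). Both genes were called in all 16 alternatives that could test them.

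The neighbours of these genes in the cluster had few reads or no call. ABCA9 had 2, 2 and 2 reads against 0, 0 and 1, and although limma called it lower (adjusted p = 0.048, and 0.12 with the block), both lines were at the floor and no fold is given. ABCA10 had 0, 1 and 4 reads against 0, 0 and 1. ABCA5, a further gene of the cluster, had a mean of 6.64 RPM against 5.75 RPM (log2 fold change -0.14, interval -0.92 to 0.64, limma adjusted p = 0.92). The A family genes of the cluster thus ran from a loss of all detected reads in ABCA8 to overlapping lines in ABCA5.

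ABCG1, which passes cholesterol to high density lipoprotein, had 0.758, 0.428 and 0.582 RPM in HuCCT1/CD90- libraries and 1, 0 and 0 reads in HuCCT1/CD90+ libraries. The ratio of pooled reads was 16.2-fold lower, with an exact interval of 2.55 to 674 (log2 fold change -0.61, limma adjusted p = 0.018). Its call was lost without HuCCT1/CD90- replicate 3 or HuCCT1/CD90+ replicate 2 or 3, where the adjusted p reached 0.073. ABCA2, a lipid transporter of late endosomes, had 33.3, 45.2 and 36.9 RPM against 39.3, 53.0 and 42.8 RPM. The lines overlapped and ABCA2 was not called (limma adjusted p = 0.51), while it was in the fit with the replicate block (adjusted p = 0.018), since each HuCCT1/CD90+ library was above the HuCCT1/CD90- library of the same number. ABCA3 (surfactant lipids), ABCA7, ABCA12 (epidermal lipids) and ABCA13 overlapped between the lines, with limma adjusted p of 0.17 to 0.49.

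The exporters of the bile canaliculus had 4 members, and the pair with any reads above the floor rose at a very low level. Of the 4, 2 were called higher, where 9.41% of all genes were. With the replicate block 1 was, where 6.72% of all genes were. ABCB4, the phospholipid floppase of the canaliculus, had 0 reads in all 3 HuCCT1/CD90- libraries and 3, 3 and 5 reads in HuCCT1/CD90+ libraries, 0.322, 0.349 and 0.543 RPM. This was at least 1.26-fold higher when set against the floor (log2 fold change 0.49, limma adjusted p = 0.013), and in the fit with the replicate block the adjusted p was 0.059. The call was also lost whichever HuCCT1/CD90- library was left out (adjusted p up to 0.056). ABCB11, the bile salt export pump, had 1, 2 and 3 reads against 0.750, 0.699 and 0.977 RPM. The ratio of pooled reads was 4.08-fold higher, with an exact interval of 1.61 to 12.3 (log2 fold change 0.59, limma adjusted p = 0.018). Its call was lost without HuCCT1/CD90- replicate 2 or HuCCT1/CD90+ replicate 1 or 3 (adjusted p up to 0.064), and DESeq2 on the reads gave 0.10. The sterol exporters ABCG5 and ABCG8 were at the floor in both lines. ABCC8 and ABCC9, the regulatory subunits of ATP-sensitive potassium channels, had no read in any library.

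The B family members of mitochondria and lysosomes numbered 5, of which 1 was called lower and 0 higher. Among all genes 9.52% were called lower and 9.41% higher. ABCB6, a porphyrin transporter, had 27.6, 32.6 and 29.01 RPM against 20.5, 23.4 and 23.3 RPM. The lines did not overlap, and the mean was 1.33-fold lower in HuCCT1/CD90+ cells (log2 fold change -0.39, SE 0.088, limma adjusted p = 0.047). This call stood at the threshold, since it was lost whichever library was left out (adjusted p 0.071 to 0.12) and in edgeR (0.059). ABCB10, a transporter of the inner mitochondrial membrane, had a mean of 24.6 RPM against 19.4 RPM without overlap (limma adjusted p = 0.12). ABCB8 of the same membrane and the lysosomal peptide transporter ABCB9 overlapped between the lines.

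Of the D family, which serves peroxisomes and cobalamin transport, 3 members are described. ABCD3, the abundant peroxisomal carrier of branched and long chain acyl-CoA, had 112, 106 and 109 RPM against 100, 67.4 and 71.8 RPM. ABCD4, which is needed for the release of cobalamin from lysosomes, had 56.5, 53.0 and 48.9 RPM against 37.0, 45.2 and 33.2 RPM. Neither overlapped between the lines, and both missed the threshold in the main limma fit (adjusted p = 0.15 and 0.091) and passed it in edgeR (0.029 and 0.032). With the median of the neighbours subtracted, as described below, ABCD3 had a log2 fold change of -0.19 (limma adjusted p = 0.58). ABCD4 then had -0.64 (limma adjusted p = 0.042). ABCD2 was at the floor in both lines.

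The E and F families, which work on ribosomes instead of membranes, had 4 members with 0 calls in the main limma fit. That fit called 9.41% of all genes higher and 9.52% lower. ABCE1 splits ribosomes after termination, and was read at 73.4, 74.7 and 99.5 RPM against 185, 108 and 110 RPM. Its lines did not overlap, with HuCCT1/CD90+ replicate 1 standing apart from the other HuCCT1/CD90+ libraries (log2 fold change 0.67, limma adjusted p = 0.20). Without that library the log2 fold change of ABCE1 was 0.41 (adjusted p = 0.25), and with the median of its neighbours subtracted, as described below, it was 0.40 (adjusted p = 0.46). ABCF2 had 127, 106 and 105 RPM against 169, 139 and 162 RPM (log2 fold change 0.47, limma adjusted p = 0.063). ABCF3, whose promoter is shown above, had 43.8, 59.6 and 49.1 RPM against 73.5, 70.6 and 80.6 RPM (log2 fold change 0.56, limma adjusted p = 0.054). All 3 of these genes were higher without overlap, and edgeR on the reads gave adjusted p of 0.0053 for ABCE1, 0.015 for ABCF2 and 0.0067 for ABCF3. ABCF1, which promotes initiation of translation, had 112, 135 and 120 RPM against 117, 115 and 126 RPM, with a log2 fold change of -0.028 (interval -0.26 to 0.20).

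Several members lie in stretches of chromosomes whose genes moved together. Each gene was set beside the 50 genes closest to it on its chromosome whose mean reached 10 RPM, by position in GENCODE 29, and their median log2 fold change was taken. This median was 0.70 around ABCC5 and ABCF3 on chromosome 3, 0.52 around ABCF2 and ABCB8 on chromosome 7 and 0.55 around ABCB4 on chromosome 7. It was -0.34 around ABCC1 on chromosome 16 and 0.46 around ABCG2 on chromosome 4, whose own change was in the opposite direction. Around ABCA1, ABCA6, ABCA8 and ABCC3 it lay between -0.0042 and 0.028. With the median of the neighbours subtracted, ABCC5 had a log2 fold change of 0.75 (limma adjusted p = 0.12) and ABCF3 of -0.13 (adjusted p = 0.62). ABCF2 then had -0.051 (adjusted p = 0.94), while ABCC1 kept its call (-0.91, adjusted p = 0.0049), as did ABCG2 and ABCA1. Whether gene dosage differs between the lines was not tested.

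**Figure D4:**
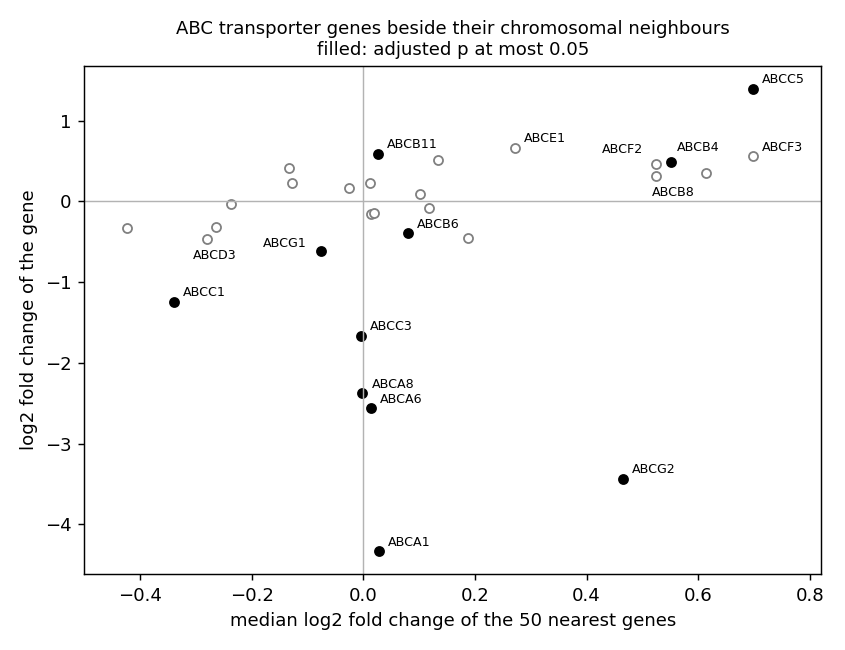
Log2 fold change of the reported ABC transporter genes above the floor in at least 1 line, on the vertical axis, against the median of the log2 fold changes of its 50 closest genes on the horizontal axis, both on the log2(RPM + 1) scale. ABCC5 and ABCF3 stand at the right edge at 0.70, while ABCA1 lies near 0.028 on the horizontal axis with the lowest value on the vertical axis.

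The genes around the family were read from lists of 52 regulators, partner proteins, ABC proteins under other symbols and other carriers, of which 10 were higher (19.2%, against 9.41% of all genes) and 7 lower (13.5%, against 9.52% of all genes) in HuCCT1/CD90+ cells. With the replicate block 7 were higher (13.5%, against 6.72% of all genes) and 5 lower (9.62%, against 6.40% of all genes). Of the 19 nuclear receptors and other regulators, 3 were higher (HNF4A, PPARD and PPARA) and 3 were lower, NR1H3 and MYLIP among them. With the replicate block 2 were higher and 2 lower, beside the shares of all genes given above for each fit. NR1H3 encodes the liver X receptor alpha, a sterol sensor that activates ABCA1 and ABCG1. It had 12.04, 18.9 and 12.1 RPM in HuCCT1/CD90- and 3.54, 3.73 and 3.25 RPM in HuCCT1/CD90+ libraries, without overlap. The mean fell from 14.4 ± 3.96 to 3.51 ± 0.237 RPM, 4.10-fold lower (log2 fold change -1.74, SE 0.20, limma adjusted p = 0.0082). NR1H2, the other liver X receptor, had a mean of 59.9 RPM against 74.5 RPM with overlapping lines (adjusted p = 0.46). MYLIP, another target of the liver X receptors, which degrades the LDL receptor, had 2.65, 3.42 and 3.10 RPM against 0.750, 1.16 and 1.08 RPM (log2 fold change -1.02, limma adjusted p = 0.0085). MYLIP and NR1H2 were singled out after their values were seen. Whether the liver X receptors regulate any of these genes in these cells was not tested.

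HNF4A, a transcription factor of hepatocytes and gut epithelium, had 0, 1 and 2 reads in HuCCT1/CD90- libraries and 5.25, 8.85 and 12.2 RPM in HuCCT1/CD90+ libraries. The ratio of pooled reads was 88.0-fold higher, with an exact interval of 29.7 to 430 (log2 fold change 3.09, limma adjusted p = 0.0057). PPARD, a fatty acid receptor, rose from 51.2 ± 6.31 to 148 ± 29.5 RPM (log2 fold change 1.497, SE 0.18, limma adjusted p = 0.0097). PPARA had a limma adjusted p of 0.0095, and of 0.071 when the replicate numbers were blocked.

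Of the 15 partner proteins, ATP8B1 and KCNJ11 were called higher, the latter at the floor in both lines and with an adjusted p of 0.14 in the fit with the block, and APOA1 and PEX19 were called lower. APOA1, the acceptor of the lipid that ABCA1 exports, had 3.70, 4.28 and 1.75 RPM against 0.429, 0.233 and 0 RPM. The ratio of its pooled reads was 14.5-fold lower in HuCCT1/CD90+ cells, with an exact interval of 6.43 to 40.5 (log2 fold change -1.76, SE 0.31, limma adjusted p = 0.026), with an adjusted p of 0.018 to 0.090 when a library was left out and a call in 1 of those 6 fits, the one without HuCCT1/CD90- replicate 3. PEX19, which chaperones the D family proteins to peroxisomes, had an adjusted p of 0.016, and of 0.067 with the block. Of the 15 carriers and other exporters, 4 were higher, among them SLCO1B3, SLCO3A1 and ATP7B, and SLC51B was called lower at the floor in both lines (adjusted p = 0.054 with the block). Over all genes 9.41% were higher and 9.52% lower without the block. With the block the copper exporter ATP7B had an adjusted p of 0.13.

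The ABC proteins that carry other symbols were CFTR, TAP1 and TAP2. TAP1 and TAP2 form the heterodimer that brings peptides into the endoplasmic reticulum for MHC class I. TAP1 had 126, 124 and 131 RPM against 77.5, 69.9 and 71.8 RPM and was 1.74-fold lower in HuCCT1/CD90+ cells (log2 fold change -0.79, SE 0.048, limma adjusted p = 0.0018). TAP2 had 102, 120 and 100 RPM against 157, 157 and 150 RPM and was 1.44-fold higher (log2 fold change 0.53, SE 0.080, limma adjusted p = 0.017, and 0.053 with the replicate block). The genes of the heterodimer thus moved in opposite directions, each without overlap between the lines. TAP2 was called in 1 of the 6 fits that left out a library, the one without HuCCT1/CD90- replicate 2 (adjusted p 0.0046 to 0.067). The median of the closest genes on chromosome 6 was -0.35 for TAP1 and -0.36 for TAP2 on the log2 scale, and with it subtracted both were still called, at -0.44 (adjusted p = 0.0075) and 0.89 (adjusted p = 0.0045). CFTR, the chloride channel of cholangiocytes, had 0.190, 0.321 and 0.582 RPM against 1.61, 0.932 and 0.109 RPM, and the libraries of HuCCT1/CD90+ cells enclosed those of HuCCT1/CD90- cells (limma adjusted p = 0.57).

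**Figure D5:**
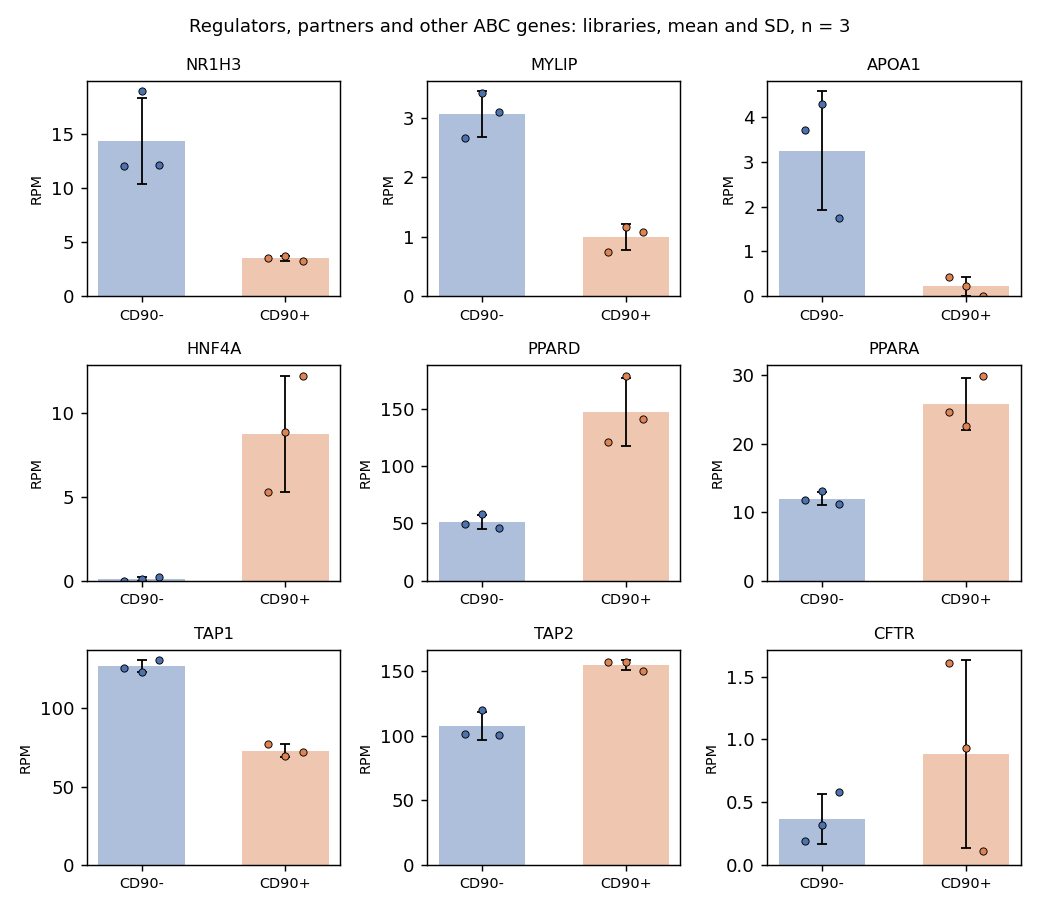
RPM of 9 regulators, partners and ABC genes under other symbols, with points for the 3 libraries of each line, bars for the mean starting at 0 and error bars for the SD. NR1H3, MYLIP, APOA1 and TAP1 are lower and HNF4A, PPARD, PPARA and TAP2 higher in every HuCCT1/CD90+ library, and CFTR overlaps.

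Some reads cannot be assigned with certainty. ABCB10, ABCF2 and ABCC6 have pseudogene copies in GENCODE 29, and exons of ABCB6, ABCF2 and ABCD4 overlap other gene models on the same strand. Exons of ABCA5 and ABCA10 overlap each other on the same strand. ABCA8 and ABCA9 overlap the antisense gene ABCA9-AS1, ABCC10 overlaps DLK2, and ABCE1 overlaps OTUD4 and ANAPC10 on the opposite strand. Whether the counting used strand is not given in the sources used here. Each gene was read from a single amplicon, so a change of isoform could also move a value.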

How the data were processed

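Total RNA was extracted with miRNeasy kits from HuCCT1/CD90+ and HuCCT1/CD90- cells, 3 libraries each, amplified with the Ion AmpliSeq Transcriptome panel and read on the Ion GeneStudio S5 Prime system. Counting by the authors used the ampliSeqRNA plugin, and they deposited RPM, for which each library was scaled to a common sum, in a single table with no filter. The submitters' processing notes name the build hg19 and the Transcriptome Analysis Console. In every library 100% of the values were whole multiples of 1 read (tolerance 0.02 reads), which gave back the reads. Reads carry no molecular identifiers, so floors and intervals cover counting error only. No pair of libraries agreed within sampling noise.

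The RPM values were taken to log2(RPM + 1) and tested with limma 3.58.1 (lmFit, eBayes, two-sided, no filter, no replicate block) over 20811 genes in R 4.3.3, with Benjamini-Hochberg adjustment. edgeR 4.0.16 (quasi-likelihood, TMM, 12070 genes after filterByExpr) and DESeq2 1.42.0 were run on the recovered reads as alternatives, beside other offsets, filters, normalizations, call rules and libraries left out. The scripts were tested on simulated data. The check on the share of large changes found left out the main limma fit, so no such share is given for it. A fold against a line at 0 reads was computed against 3 reads per library, and with 1 to 9 reads over the 3 libraries as a ratio of pooled reads with an exact interval.

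Same-numbered libraries of both lines deviated together from the means of their lines (r = 0.21, 0.32 and 0.18 over genes, against -0.29 to 0.07 for other pairs). On this ground only, a fit with the replicate number as block was run beside the main fit, which did not pair the libraries. Its values are given where it changed the call of a gene described here. The members, lists and tests were chosen with earlier results of these data known. Members called with a mean of at least 1 RPM in the higher line are described by library, as are the best known exporters, and from the lists of other genes THY1, CFTR, TAP1, TAP2 and the 2 largest rises and falls. Gene positions came from GENCODE 29 (GRCh38) by symbol, and promoters from RefSeq (GRCh38.p14). No coordinates of the files were converted. Some genes enter the counts but are not reported here.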

Additional observations from a re-analysis of the deposited data

How the results depend on the processing

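The log2 fold changes of 37 genes gave 606 values under the alternatives, of which 7 turned direction. These were ABCA5 (0.13 without HuCCT1/CD90- replicate 3, with -0.34 to 0.13 when a library was left out), ABCF1 (0.046 without HuCCT1/CD90- replicate 2, with -0.090 to 0.046), and, with the median of the neighbours subtracted, ABCF1 (0.21), ABCB10 (0.078), ABCB8 (-0.11), ABCF2 (-0.051) and ABCF3 (-0.13), and none of these genes was called in limma. Leaving out a library gave 1 to 3 members higher and 5 to 8 lower, against 3 and 10, and 6 to 9 of the 52 other genes higher and 3 to 7 lower, against 10 and 7, while 5.54% to 6.69% of all genes were higher and 5.02% to 7.40% lower. Each such fit has fewer libraries. DESeq2 called 5 members and 13.1% of all genes higher, with ABCE1, ABCF2 and ABCF3 gained and ABCB11 lost, and the cause was not tested. ABCB4, ABCB11 and ABCG1 were below the filter of edgeR. A minimum fold of 2, taken from the differences on the log2(RPM + 1) scale, which understate the folds of ABCB11 and ABCG1, left 1 member higher and 6 lower, and 4 other genes higher and 3 lower, against 4.57% and 4.43% of all genes. Median centring of the libraries called 11 of the other genes lower, beside 11 higher, where 13.1% of all genes were lower and 11.5% higher, and the cause was not tested. With the replicate number as a block, 3 members were higher (6.52%, against 6.72% of all genes) and 8 lower (17.4%, against 6.40% of all genes), with ABCA9 among the calls lost. ABCA1, ABCG2 and ABCC1 were called in every fit that was run. Depth limits what can be said of the 14 members with at most 3 reads in every library.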
